A study of Mus musculus with 13 samples.

Results

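The miR-99/100, miR-10 and miR-125 families were followed through extracellular vesicles of mouse C26 colon adenocarcinoma cells and of mouse plasma. The members were chosen by name, as the 7 mature mouse miRNAs mmu-miR-99a-5p, mmu-miR-99b-5p, mmu-miR-100-5p, mmu-miR-10a-5p, mmu-miR-10b-5p, mmu-miR-125a-5p and mmu-miR-125b-5p (written below without the prefix for mouse) among the 1452 miRNAs listed in the 2 deposited tables. All 7 were present in both tables and all 7 passed the filter on low counts in plasma. The study sequenced small RNA from 13 libraries of Balb/C material. There were 3 libraries of vesicles released over 48 h into serum-free medium by cultured C26 cells, a line derived from a colon tumour (TMVs in the labels, C26 cell vesicles here). There were 6 of plasma vesicles from mice described as cachectic, that is wasting, which had been injected under the skin with 500000 C26 cells and were killed on day 14, and 4 of plasma vesicles from healthy control mice. No transgene or genotype is named for any group, no age is stated for the mice, and the labels do not say whether each plasma library came from its own animal. The descriptions of control replicates 2 and 3 carry a pair of numbers each, whose meaning is not stated.

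These families are old and deeply conserved. The miR-125 genes are the mammalian relatives of lin-4, the first microRNA found in the worm, and the miR-99/100 and miR-10 miRNAs descend from a common ancestor. Members of miR-99/100 and miR-125 are transcribed together with a let-7 gene from 3 paralogous clusters, whereas the miR-10 genes sit inside Hox gene clusters and follow Hox-like patterns along the body axis. miR-99/100 is known for repressing components of the mTOR and insulin-like growth factor receptor pathway, miR-125b for acting on apoptosis and blood cell differentiation, and miR-10b for roles in endothelium and in tumour cell migration.

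The mature sequences are shown because the paralogues that trade places between tumour cell and plasma vesicles differ by few bases. They come from RefSeq (GRCm38.p6), where all 7 were matched by name, and are written 5′ to 3′ with the seed, bases 2 to 8 that pair with targets, in capitals.
mmu-miR-99a-5p: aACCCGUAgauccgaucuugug
mmu-miR-99b-5p: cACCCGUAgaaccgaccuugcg
mmu-miR-100-5p: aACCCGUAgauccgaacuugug
mmu-miR-10a-5p: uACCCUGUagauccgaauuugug
mmu-miR-10b-5p: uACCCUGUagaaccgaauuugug
mmu-miR-125a-5p: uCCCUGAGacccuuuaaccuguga
mmu-miR-125b-5p: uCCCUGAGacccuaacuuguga

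The 7 sequences carried 3 seeds, ACCCGUA in miR-99/100, ACCCUGU in miR-10 and CCCUGAG in miR-125. Counted from 1 at the 5′ end, miR-99a-5p differed from miR-100-5p by the single substitution U16A, and miR-10a-5p from miR-10b-5p by the single substitution U12A. miR-99a-5p differed from miR-99b-5p by A1C, U11A, U16C and U21C. miR-125a-5p, of 24 bases, and miR-125b-5p, of 22, were identical over their first 13 bases. miR-99a-5p and miR-10a-5p shared a run of 10 bases, GUAGAUCCGA, which starts at base 6 of the former and base 7 of the latter and so takes in the end of each seed. No source used here says how the authors' counting shared reads between such close copies. The split between miR-99a and miR-100 and that between miR-10a and miR-10b are therefore uncertain.

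The precursors were placed by name in the GENCODE M21 annotation of GRCm38, whereas no build is named for the authors' counting. On chromosome 17, Mir99b (17830188 to 17830257, plus strand) and Mir125a (17830812 to 17830879) lie 554 bp apart in Spaca6, Mir99b in an intron and Mir125a overlapping an annotated exon, with Mirlet7e between them. On chromosome 16, Mir99a (77598936 to 77599000) and Mir125b-2 (77646273 to 77646343) lie 47272 bp apart in introns of Mir99ahg, with Mirlet7c-1 between. On chromosome 9, Mir100 (41531425 to 41531504) and Mir125b-1 (41581926 to 41582002) lie 50421 bp apart in introns of 3110039I08Rik, with Mirlet7a-2 between. Mir100 also overlaps an exon of Gm48742 on the other strand, and Mir125b-1 an exon of Gm28119 on the same strand. Mir10b lies on chromosome 2 (74726070 to 74726137) in introns of Hoxd3 and Hoxd4, and Mir10a on chromosome 11 (96317165 to 96317274) in no annotated gene. Mature miR-125b-5p has the same sequence from both of its loci, so its counts do not tell them apart.

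Depth and the makeup of the libraries bear on every value that follows. Total counts ran from 112357 to 170571 in C26 cell vesicles, from 9828 to 76376 in plasma of C26-bearing mice and from 7962 to 131385 in control plasma. Where a miRNA had 0 counts, a limit of 3 counts was used, which is 0.0377% of the shallowest plasma library. Limits and intervals of this kind describe counting error alone. One other miRNA, miR-5119, held over 20% of the counts in 5 plasma libraries (C26-bearing replicates 1 to 4 and control replicate 4) and at most 2.55% in the other 5. The 5 rich libraries have the sequence sheet numbers 18 to 22, and the sample number, the miR-5119 share and any run effect cannot be told apart. Red cell markers (miR-451a, miR-486a-5p and miR-144-3p) together held 3.37% to 8.07% of counts in the miR-5119-rich libraries and 19.4% to 52.6% in the others. Of these markers, only miR-486a-5p split in this way, with 1.52% to 4.17% against 17.1% to 51.3%. miR-451a, with 1.70% to 3.86% against 1.28% to 5.61%, and miR-144-3p overlapped between the library types. In C26 cell vesicles the 4 epithelial markers of the miR-200 family held at most 0.00136% of counts, with miR-141-3p at 0 in all 3, although the line is labelled an adenocarcinoma. The liver marker miR-122-5p held at most 0.0375% there, against 5.87% to 25.5% in control plasma.

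Together the 7 members held 12.95%, 10.4% and 9.66% of the counts in C26 cell vesicles, 10.99% ± 1.74 (SD, n = 3). In control plasma they held 7.70%, 4.65%, 7.03% and 1.03%, or 5.10% ± 3.02 (SD, n = 4). In C26-bearing plasma their share ran from 0.917% through a median of 3.17% to 5.48%, or 3.23% ± 1.74 (SD, n = 6). With miR-5119 left out of the total, they held 5.35% ± 2.63 in control plasma (SD, n = 4). In C26-bearing plasma they then held 4.27% ± 1.52 (SD, n = 6). Unless said otherwise, all other shares of counts given here keep miR-5119 in the total. All 3 cell vesicle libraries lay above all 10 plasma libraries, and the plasma groups overlapped. Cell and plasma vesicles were deposited in separate tables, so a difference in level between them was not tested and cannot be told apart from a difference in preparation or run. Fewer vesicles of a source and less of the miRNA per vesicle cannot be told apart in such bulk samples.

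**Figure D1:**
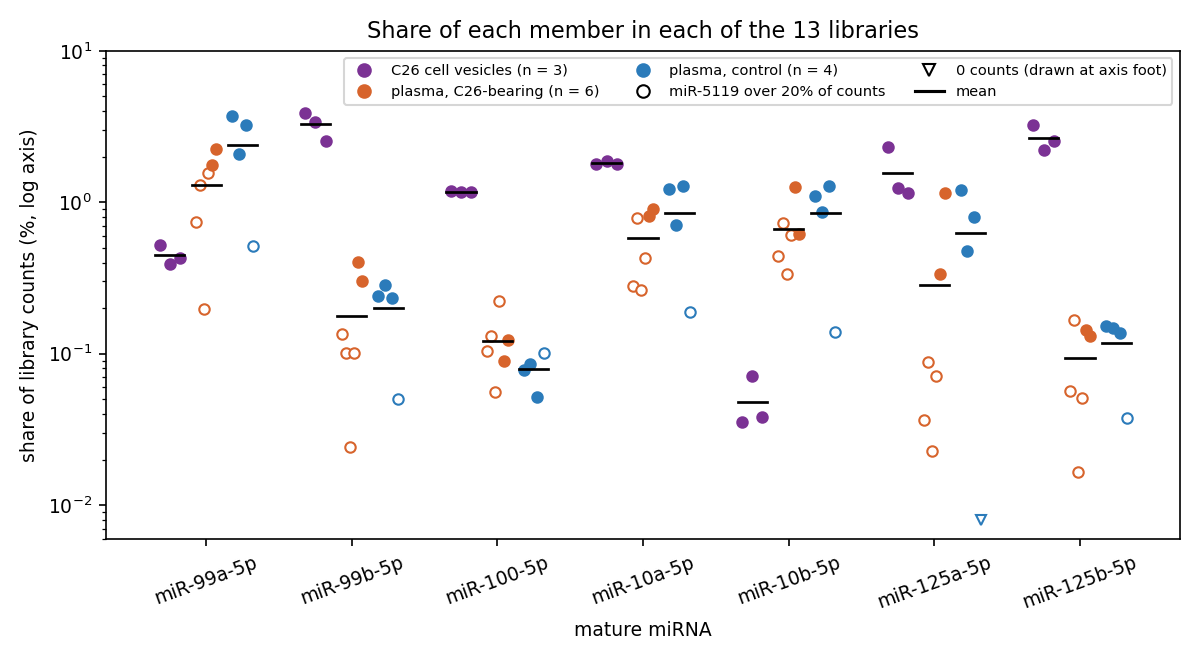
Share of the library's counts (percent, log axis) held by each of the 7 members in each of the 13 libraries; points are libraries, bars are group means, open points are plasma libraries with over 20% miR-5119, and the triangle is the library with 0 counts of miR-125a-5p. miR-99b-5p, miR-100-5p, miR-10a-5p and miR-125b-5p were higher in all 3 cell vesicle libraries than in any plasma library, while miR-99a-5p and miR-10b-5p had higher group means in plasma.

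The members of the miR-99/100 family changed rank between the 2 kinds of vesicle. miR-99b-5p led in C26 cell vesicles with 3.86%, 3.40% and 2.53% of counts, rank 10 of all miRNAs by mean share. In control plasma it held 0.239%, 0.283%, 0.234% and 0.0502%, and in C26-bearing plasma from 0.0242% through a median of 0.118% to 0.402%. Every cell vesicle library was thus above every plasma library for this miRNA.

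miR-99a-5p had the opposite order. It held 0.526%, 0.389% and 0.430% in C26 cell vesicles, where it ranked 46. It held 3.70%, 2.09%, 3.25% and 0.515% in control plasma, where it ranked 6, and from 0.197% through a median of 1.43% to 2.25% in C26-bearing plasma, where it ranked 12. Control replicate 4 and C26-bearing replicate 3, both rich in miR-5119, lay within or below the range of the cell vesicles, and the other 8 plasma libraries lay above it.

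miR-100-5p was the steadiest of the 7 in C26 cell vesicles, with 1.19%, 1.16% and 1.16% of counts. In control plasma it held 0.0778%, 0.0861%, 0.0518% and 0.1005%, and in C26-bearing plasma from 0.0560% through 0.114% (median) to 0.224%. The counts behind the plasma values were small, from 8 to 98 in controls and from 20 to 100 in C26-bearing mice. No plasma library came near the cell vesicles, and the plasma groups overlapped.

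As parts of their family, miR-99a-5p, miR-99b-5p and miR-100-5p made up 9.24% ± 1.29, 66.4% ± 4.39 and 24.3% ± 3.51 (SD, n = 3) in C26 cell vesicles. In control plasma they made up 86.6% ± 6.99, 7.91% ± 2.49 and 5.50% ± 6.46 (SD, n = 4). The control mean of miR-100-5p rested on replicate 4, at 15.1% (8 of 53 counts), and was 2.30% ± 1.07 without it (SD, n = 3). In C26-bearing plasma they made up 79.4% ± 5.44, 10.6% ± 4.65 and 9.97% ± 5.93 (SD, n = 6). miR-99a-5p held at least 71.0% of the family in all 10 plasma libraries and at most 10.4% in the 3 cell vesicle libraries.

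**Figure D2:**
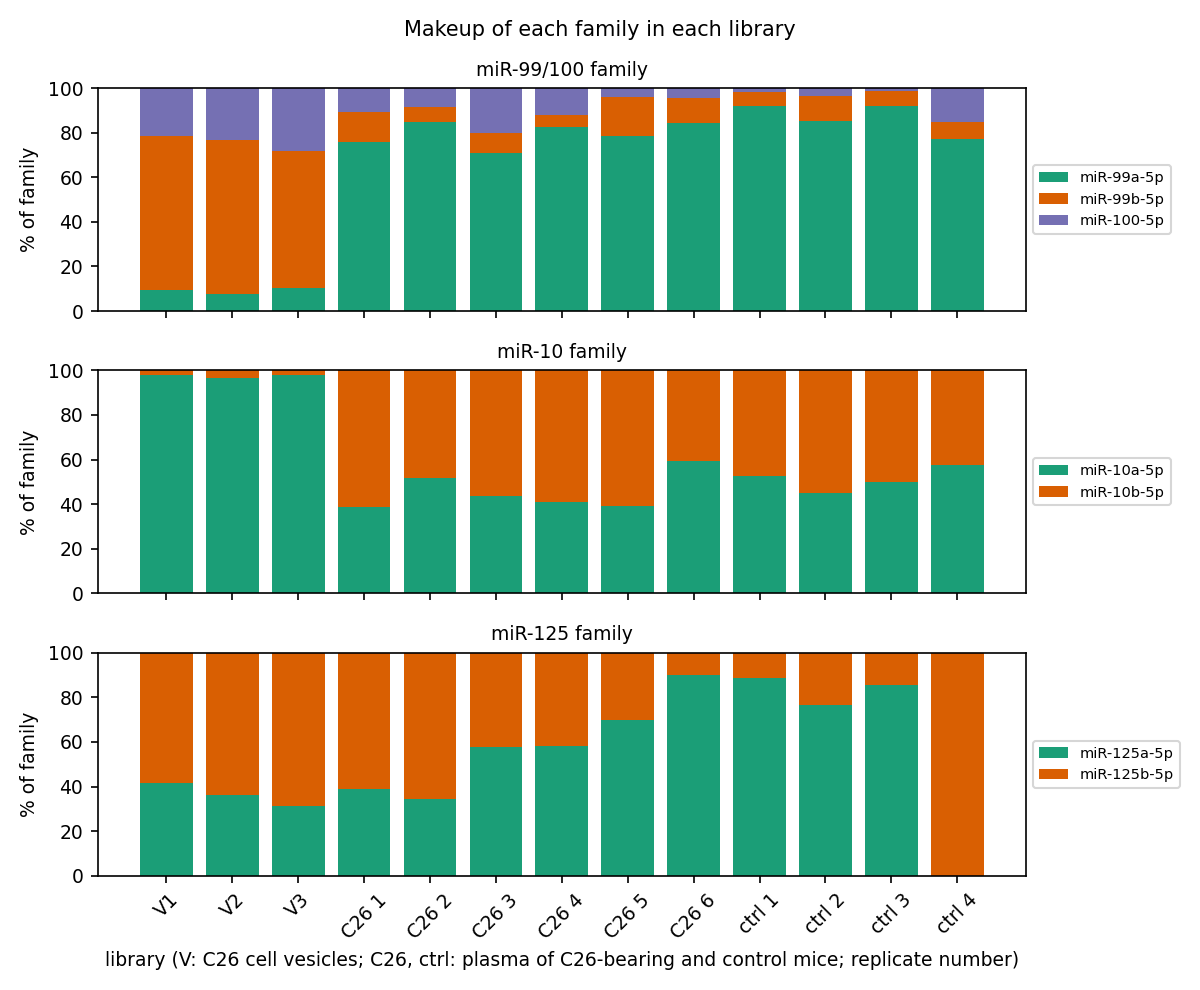
Makeup of the miR-99/100 (top), miR-10 (middle) and miR-125 (bottom) families in each library, as percent of the family's counts (stacked bars, 0 to 100%). miR-99a-5p filled most of its family in all plasma libraries and little of it in cell vesicles, miR-10a-5p filled at least 96.4% of its family in cell vesicles, and the miR-125 bars differed among the plasma libraries.

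The ratio of miR-99a-5p to miR-99b-5p compares paralogues within a library and so does not depend on scaling. The ratio was 0.136, 0.114 and 0.170 in C26 cell vesicles. It was 15.5, 7.38, 13.9 and 10.2 in control plasma and 5.50, 12.9, 8.13, 15.3, 4.41 and 7.47 in C26-bearing replicates 1 to 6. The counts were 770 against 5656 in the first cell vesicle library and 4667 against 301 in the first control.

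On the log2 scale with 0.5 added to each count, the means of this ratio were -2.85 ± 0.286 (SD, n = 3) in cell vesicles, 3.46 ± 0.501 (SD, n = 4) in control plasma and 3.0004 ± 0.677 (SD, n = 6) in C26-bearing plasma. The difference between cell vesicles and control plasma was -6.31 (two-sided p = 0.0286 by exact permutation, or 0.0643 after adjustment for the 9 ratio comparisons). That between cell vesicles and C26-bearing plasma was -5.85 (exact permutation p = 0.0119, adjusted 0.0536). Both raw p are the smallest that 3 libraries against 4 and against 6 allow, and neither passed 0.05 after adjustment. As with the levels, a difference in any paralogue ratio between cell and plasma vesicles cannot be told apart from one in preparation or run. The nearest libraries of the groups were still 43.3-fold apart for control plasma and 25.9-fold apart for C26-bearing plasma. Between the plasma groups the difference was -0.46 (exact permutation p = 0.267, adjusted 0.321), and their libraries overlapped.

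**Figure D3:**
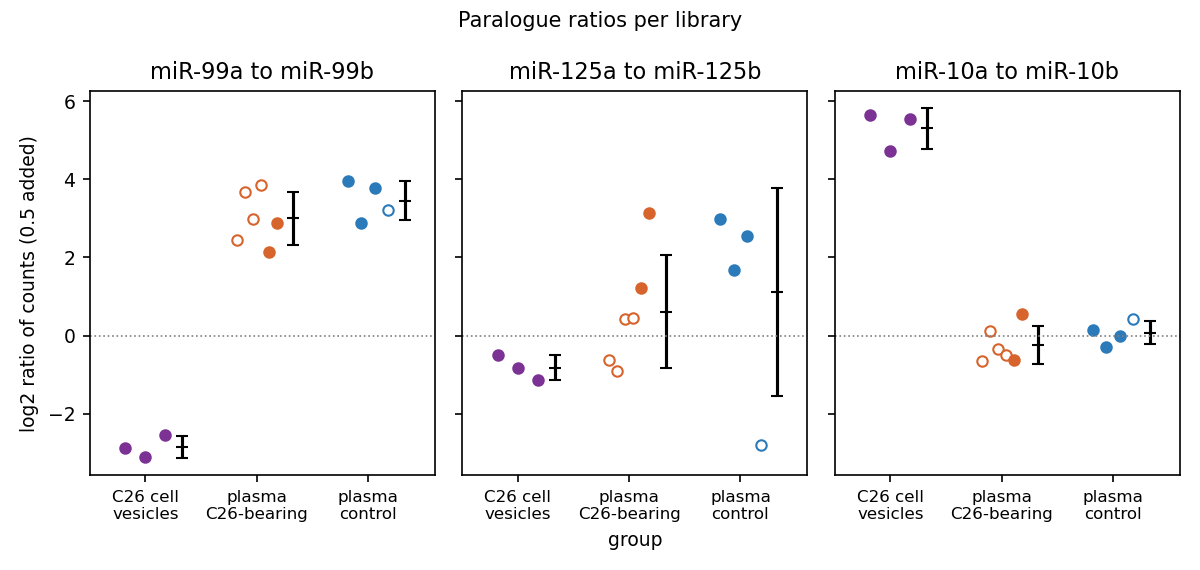
Log2 ratio of counts (0.5 added to each) of miR-99a to miR-99b, miR-125a to miR-125b and miR-10a to miR-10b in each library, by group; bars show mean ± SD, the dotted line marks equal counts and open points are libraries with over 20% miR-5119. The first ratio lay near -2.85 in cell vesicles and near 3 in plasma, the third near 5.31 in cell vesicles and near 0 in plasma, and the second spread widely in both plasma groups.

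The miR-10 family held 1.88% ± 0.0680 of counts in C26 cell vesicles (SD, n = 3), 1.69% ± 1.00 in control plasma (SD, n = 4) and 1.25% ± 0.562 in C26-bearing plasma (SD, n = 6), but in different proportions of its members. miR-10a-5p, the copy in the Hoxb cluster, held 1.80%, 1.88% and 1.80% of counts in C26 cell vesicles. It held 1.22%, 0.706%, 1.27% and 0.188% in control plasma and from 0.263% through a median of 0.606% to 0.906% in C26-bearing plasma. All cell vesicle libraries lay above all plasma libraries, by less than in the case of miR-99b-5p.

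miR-10b-5p, the copy in the Hoxd cluster, was scarce in C26 cell vesicles, with 52, 80 and 65 counts or 0.0355%, 0.0712% and 0.0381%. In control plasma it held 1.0999%, 0.861%, 1.28% and 0.138%, and in C26-bearing plasma from 0.337% through 0.614% (median) to 1.26%. Its lowest plasma library, control replicate 4 with 11 counts, was above the highest cell vesicle library. miR-10b-5p was the one member, of the 7, whose share was lower in all 3 cell vesicle libraries than in all 10 plasma libraries.

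The ratio of miR-10a-5p to miR-10b-5p was 50.7, 26.4 and 47.2 in C26 cell vesicles. It was 1.11, 0.821, 0.996 and 1.36 in control plasma and 0.635, 1.08, 0.780, 0.700, 0.645 and 1.47 in C26-bearing replicates 1 to 6. Plasma vesicles thus held these copies in near equal amounts, whatever the group or the miR-5119 share, and cell vesicles held 96.4% to 98.1% of the family as miR-10a-5p.

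The log2 means of this ratio were 5.31 ± 0.513 (SD, n = 3) in cell vesicles, 0.07 ± 0.299 (SD, n = 4) in control plasma and -0.25 ± 0.481 (SD, n = 6) in C26-bearing plasma. The difference was 5.23 against control plasma (exact permutation p = 0.0286, adjusted 0.0643) and 5.55 against C26-bearing plasma (exact permutation p = 0.0119, adjusted 0.0536), again the smallest p the numbers of libraries allow. The nearest libraries were 19.5-fold and 17.9-fold apart. Between the plasma groups the difference was -0.32 (exact permutation p = 0.286, adjusted 0.321), with overlap.

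The miR-125 family held 4.23% ± 1.14 of counts in cell vesicles (SD, n = 3), 0.742% ± 0.560 in control plasma (SD, n = 4) and 0.379% ± 0.472 in C26-bearing plasma (SD, n = 6). Without C26-bearing replicate 6 the last mean was 0.197% ± 0.176 (SD, n = 5). miR-125b-5p held 3.24%, 2.22% and 2.55% of counts in C26 cell vesicles. It held 0.153%, 0.147%, 0.136% and 0.0377% in control plasma and from 0.0166% through a median of 0.0936% to 0.166% in C26-bearing plasma. Cell vesicles and plasma did not overlap, and the plasma groups did.

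miR-125a-5p held 2.30%, 1.25% and 1.15% in C26 cell vesicles. In control plasma it held 1.21%, 0.475% and 0.805% in replicates 1 to 3 and 0 of 7962 counts in replicate 4, which allows a share of up to 0.0377%. In C26-bearing replicates 1 to 6 it held 0.0363%, 0.0877%, 0.0227%, 0.0712%, 0.334% and 1.16%. The highest plasma libraries reached the range of the cell vesicles. In plasma the 5 libraries rich in miR-5119 lay between 0% and 0.0877% and the other 5 between 0.334% and 1.21%, a split seen after the values and given with no test. The other families split too. miR-99/100 held 0.277% to 1.88% in the rich libraries against 2.27% to 4.02%, and miR-10 0.327% to 1.51% against 1.52% to 2.55%. With miR-5119 left out of the total, the 7 members together overlapped, at 1.91% to 5.36% against 4.69% to 7.71%. miR-125a-5p then still split, at 0% to 0.143% against 0.343% to 1.21%. Red cell markers together lay between 3.37% and 8.07% in the rich libraries and between 19.4% and 52.6% in the others. Of these markers only miR-486a-5p split so, whereas miR-451a and miR-144-3p overlapped between the library types. The part of red cells in the miR-125a-5p level was not tested.

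The ratio of miR-125a-5p to miR-125b-5p was 0.711, 0.564 and 0.453 in C26 cell vesicles. In control plasma it was 7.92, 3.23 and 5.91 in replicates 1 to 3, while replicate 4 had 0 counts against 3. In C26-bearing replicates 1 to 6 it was 0.636, 0.528, 1.36, 1.40, 2.33 and 8.88. The 5 plasma libraries with little miR-5119 had ratios from 2.33 to 8.88 and the 5 rich ones from 0 to 1.40. This split was seen after the values and has no test. Rich C26-bearing replicates 1, 3 and 4 had only 7 against 11, 15 against 11 and 7 against 5 counts. Control replicate 4 was the only rich control.

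The log2 means of this ratio were -0.82 ± 0.325 (SD, n = 3) in cell vesicles, 1.11 ± 2.66 (SD, n = 4) in control plasma and 0.61 ± 1.46 (SD, n = 6) in C26-bearing plasma. The difference was -1.93 between cell vesicles and control plasma (exact permutation p = 0.257, adjusted 0.321), -1.43 between cell vesicles and C26-bearing plasma (p = 0.143 in the exact permutation test, adjusted 0.257) and -0.49 between the plasma groups (exact permutation p = 0.724, adjusted 0.724). None of these exceeded the larger SD of the groups compared. The control SD rested on replicate 4, whose value of -2.81 came from 0 against 3 counts and so hinged on the 0.5 added. Control replicates 1 to 3 stood at 2.98, 1.69 and 2.56. Without control replicate 4 the difference between cell vesicles and control plasma was -3.23, and that between the plasma groups was -1.79. Without control replicate 1 the difference between the plasma groups was 0.14. With the plasma libraries poor in miR-5119 alone, the difference between C26-bearing and control plasma was -0.24.

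The other arms of the same precursors, 8 miRNAs, gave little signal in plasma, and 0 of the 8 passed the filter on low counts there. miR-99a-3p was at 0 in all 13 libraries and miR-100-3p at 0 in the cell vesicles and in the controls. In C26 cell vesicles miR-99b-3p had 307, 247 and 316 counts, miR-125a-3p 266, 160 and 172, and miR-125b-1-3p 318, 196 and 235. These 3 were thus well measured in the cell vesicles, from the loci on chromosomes 17 and 9.

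The 3′ arms of miR-125b differ between its loci and are shown because they tell the loci apart where the mature 5′ arm cannot (RefSeq, 5′ to 3′, bases 2 to 8 in capitals).
miR-125b-1-3p (chromosome 9): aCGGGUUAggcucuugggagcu
miR-125b-2-3p (chromosome 16): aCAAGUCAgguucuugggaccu

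Of the counts of these arms, 749 of 759 in C26 cell vesicles came from the chromosome 9 copy, 98.7% (95% exact interval 97.6% to 99.4%, over the summed counts). In control plasma 37 of 49 did, 75.5% (61.1% to 86.7%), and in C26-bearing plasma 14 of 25, 56.0% (34.9% to 75.6%). Among plasma libraries, control replicate 2 had the most of the chromosome 9 arm, 19 counts, with 3 of the other, and the difference between groups was not tested. These intervals cover counting error only and take no account of the spread between libraries. In C26-bearing plasma, replicate 5 had 8 counts of the chromosome 9 arm against 2, and replicate 6 had 0 against 5. The counts are of the 3′ arms alone, and whether the 5′ arm was split between the loci in the same way was not tested.

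The neighbours of these copies can be set side by side in the same way. The ratio of miR-99a-5p (chromosome 16) to miR-100-5p (chromosome 9) was 0.441, 0.335 and 0.369 in C26 cell vesicles. It was 47.6, 24.3, 62.8 and 5.13 in control plasma and from 3.51 through 8.54 (median) to 19.8 in C26-bearing plasma. It was also higher in the plasma libraries with little miR-5119, from 18.1 to 62.8, than in those with much, from 3.51 to 9.93. This ratio was chosen after its values were seen and has no test, and the pair differs by 1 base.

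Members of one cluster did not keep a fixed ratio. On chromosome 17, where Mir99b and Mir125a lie 554 bp apart, the ratio of miR-99b-5p to miR-125a-5p was 1.68, 2.72 and 2.19 in C26 cell vesicles. It was 0.197, 0.596 and 0.291 in control replicates 1 to 3, and from 0.260 to 3.71 in C26-bearing plasma. let-7e-5p, encoded between them, had 435, 281 and 451 counts in cell vesicles and from 1 to 28 in the plasma libraries. The let-7 partners from the other clusters held 6.37% ± 0.895 (let-7c-5p) and 1.29% ± 0.211 (let-7a-5p) of counts in cell vesicles (SD, n = 3), and both can also come from other loci.

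Plasma of C26-bearing mice was compared with control plasma for all miRNAs together, with levels as CPM, a library's counts rescaled to a common total with TMM factors. None of the 7 members was called. In edgeR, 0 of the 7 had a Benjamini-Hochberg adjusted p of at most 0.05 (quasi-likelihood test), against 0% of the 130 miRNAs tested. At an unadjusted p under 0.05 it was 0 of 7 against 11.5% of all. DESeq2 called 0 of 7 (3.08% of all) and limma voom with quality weights 0 of 7 (13.1% of all). The groups overlapped for all 7, and among all 130 miRNAs 0.769% lay lower and 0.769% higher in C26-bearing plasma without overlap. The median log2 fold change of the members was -0.26, against 0.01 over all miRNAs tested. Of the 7, 6 had a log2 fold change below 0, against 49.2% of all.

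In the miR-99/100 family, miR-99a-5p stood at 13287 ± 7652 CPM in C26-bearing plasma (SD, n = 6) and 22541 ± 14182 in control plasma (SD, n = 4), a log2 fold change of -0.77 with a 95% interval from -2.05 to 0.52 (edgeR adjusted p = 0.651). miR-99b-5p stood at 1781 ± 1345 and 1877 ± 881 CPM, with a log2 fold change of -0.09 (-1.55 to 1.36). miR-100-5p was the one member above 0, at 1272 ± 525 and 842 ± 413 CPM and a log2 fold change of 0.63 (-0.57 to 1.82). The libraries of both groups interleaved in each case, and 2 of 6 C26-bearing libraries exceeded all controls for miR-100-5p.

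In the miR-10 family, miR-10a-5p stood at 6031 ± 2739 CPM in C26-bearing and 7899 ± 4659 in control plasma (log2 fold change -0.39, interval -1.49 to 0.70), and miR-10b-5p at 6833 ± 2297 and 7738 ± 4356 (-0.19, interval -1.22 to 0.85). These intervals were the narrowest of the 7. The libraries of both groups interleaved for both miRNAs.

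In the miR-125 family, miR-125a-5p stood at 3045 ± 4997 CPM in C26-bearing and 5871 ± 5624 in control plasma, with a log2 fold change of -0.96 and an interval from -3.61 to 1.70, the widest of the 7. Without C26-bearing replicate 6, which held 373 of the group's 562 counts of this miRNA, the group mean was 1044 ± 1078 CPM (SD, n = 5) and the log2 fold change -2.56 (edgeR adjusted p = 0.224), and without control replicate 1 it was -0.15. miR-125b-5p stood at 947 ± 562 and 1122 ± 492 CPM, with a log2 fold change of -0.26 (interval -1.60 to 1.08).

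The direction of these values was not stable across the library types. Among the 5 libraries with little miR-5119 (2 C26-bearing, 3 control) the log2 fold changes were -0.39 for miR-99a-5p, 0.63 for miR-99b-5p, 0.77 for miR-100-5p, -0.12 for miR-10a-5p, -0.09 for miR-10b-5p, 0.11 for miR-125a-5p and 0.08 for miR-125b-5p. With a term for the library type, 6 of the 7 were above 0 and miR-99a-5p was at -0.11, and none passed. The 5 rich libraries hold a single control, of 7962 counts, and there the fitted values ran from -0.06 for miR-100-5p to 1.55 for miR-10b-5p, leaving aside miR-125a-5p, whose only control was at 0. Among the libraries with little miR-5119, 0 of the 7 passed an adjusted p of 0.05 in edgeR, against 0 of all 141 tested. With the term it was 0 of the 7, against 2 of all 130.

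**Figure D4:**
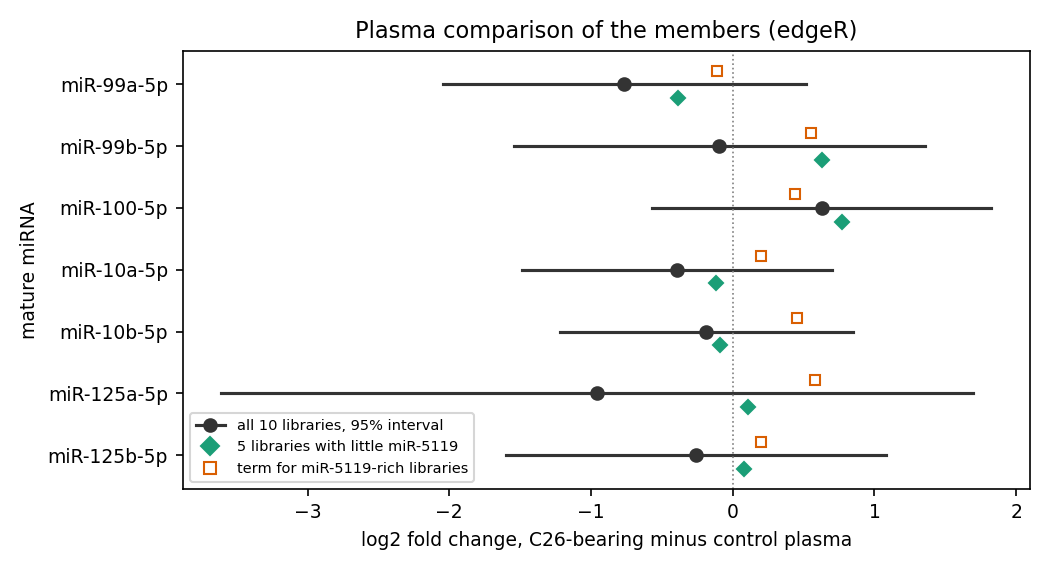
Log2 fold change of each member between C26-bearing and control plasma (edgeR), as circles with 95% intervals over all 10 plasma libraries, diamonds for the 5 libraries with little miR-5119 and open squares with a term for the library type. All 7 intervals include 0, and the value of miR-125a-5p moved from -0.96 to 0.58 with the term.

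Summed to 1 row before the fit, since close copies may share reads, the families had log2 fold changes of -0.60 (95% interval -1.84 to 0.64) for miR-99/100, -0.29 (-1.29 to 0.72) for miR-10 and -0.85 (-2.90 to 1.20) for miR-125. Of the let-7 partners of the clusters, let-7a-5p had a log2 fold change of 1.04, let-7e-5p of 0.84 and let-7c-5p of -0.27, and 0 of the 3 passed in edgeR, with let-7a-5p the miRNA that was higher in C26-bearing plasma without overlap. The partners did not share a sign across the clusters, and neither did miR-99a-5p and miR-100-5p.

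The miRNAs whose levels varied most like those of the members over the 10 plasma libraries were found by the root mean square difference of mean-centred log2 CPM, given as a description with no test. miR-10b-5p was closest to miR-24-3p (0.26) and then to its paralogue miR-10a-5p (0.41), and miR-10a-5p was closest to miR-24-3p (0.34) and then to miR-10b-5p, where the median over the 129 other miRNAs was 1.27 and 1.24. miR-99a-5p was closest to miR-30d-5p (0.44), then miR-125b-5p (0.56), then miR-24-3p (0.59), and miR-99b-5p to miR-30d-5p (0.51), miR-484 (0.54) and miR-423-3p (0.56). miR-125b-5p was closest to miR-10a-5p (0.51), miR-24-3p (0.52) and miR-27a-3p (0.53). miR-24-3p, a widely expressed miRNA, was among the 3 nearest of 4 of the 7 members.

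miR-100-5p and miR-125a-5p stood apart from the other 5. The nearest miRNAs to miR-100-5p were miR-106b-3p (0.64), let-7d-5p (0.64) and miR-186-5p (0.69). miR-99a-5p, which differs from it by 1 base, was 1.29 away, near the median of 1.33 over the other miRNAs. The nearest to miR-125a-5p were let-7d-3p (1.06), miR-674-3p (1.12) and miR-222-3p (1.38). miR-125b-5p, with which it shares its seed, was 2.04 away, nearer than the median of 2.74 over the other miRNAs. All plasma libraries contribute to these distances, among them the split by miR-5119 and the depth of each library.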

How the data were processed

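Vesicles were pelleted at 100000 g in the last spin, TriPure was used for their RNA, and 75 bp single reads were made, per the labels' protocols. bcl2fastq and cutadapt 1.10 are named in the submitters' processing notes, whereas no aligner, counting tool or build is named in the sources used here. The authors deposited unnormalized counts of mature miRNAs in 1 table for C26 cell vesicles and 1 for plasma. Plasma counts were filtered by filterByExpr (minimum count 10, 130 miRNAs kept), scaled by TMM and tested with edgeR 4.0.16 (robust quasi-likelihood fit, Benjamini-Hochberg over all 130) in R 4.3.3, with DESeq2 1.42.0 and limma 3.58.1 voom as alternatives. Levels in CPM and shares were computed from the counts. Ratios used 0.5 added to each count and exact permutation tests, two-sided on the absolute difference of means, adjusted over 9 comparisons. The libraries were fitted unpaired. The p-values reflect only how much these libraries vary, which may be technical. No pair of libraries was identical. On simulated data with the means, depths and spread of these plasma libraries, edgeR called 31.3% of the 4-fold changes and 79.1% of those of 16-fold over 20 runs with 30 of 130 miRNAs changed. The simulated miRNAs varied independently, without the miR-5119 library types, so these rates may not hold for the real libraries.

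The members, gene lists and alternatives were chosen with earlier results of these data known. The text names the 7 members, the other arms and let-7 partners of their clusters, miR-5119, the 3 nearest miRNAs of each member and the listed markers of 8 cell types. Of these marker lists, myeloid and platelet miRNAs held at most 0.189% of counts in any library, endothelial ones at most 1.54%, striated muscle ones at most 14.9%, smooth muscle and stromal ones at most 4.79% and neuronal ones at most 0.345%. The smooth muscle and neuronal maxima were in C26 cell vesicle replicate 3, from miR-143-3p (4.78%) and miR-9-5p (0.345%). In that library miR-145a-5p held 0.0141% and miR-124-3p had 0 counts, so the members of these lists did not go together. Alternatives covered scaling, filters, tools, a block on replicate number, the miR-5119 library types, shallow libraries, each library left out and other pseudocounts. Means without control replicate 4 or C26-bearing replicate 6 were added after seeing the data. Python 3.11.15, numpy 2.4.6, pandas 2.3.3, scipy 1.17.1 and matplotlib 3.10.9 were used.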

Additional observations from a re-analysis of the deposited data

Results flagged for a closer look

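In the 6 C26-bearing plasma libraries, the highest value of a pair of members stood far from the others by Dixon's test, which looks at the gap to the nearest library over the whole range. For miR-125a-5p this was replicate 6 at 13052.5 CPM (TMM), where the gap took 0.797 of the range. For miR-10b-5p it was replicate 5 at 11107.5 CPM (TMM), where it took 0.632. Of 20 groups examined, 2 gave such a value. Chance gives about 1 in 20 for normally distributed values, but the CPM were not log-transformed, so the rate here is not known. Both libraries are the ones of their group with little miR-5119, and the part of the library type in these values was not tested.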

How the results depend on the processing

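None of the 7 members was called in any of the 25 alternatives to the plasma comparison. Counts over all miRNAs were 0 in edgeR, 4 of 955 without a filter, 4 with DESeq2, 17 with limma voom, 2 with a term for miR-5119-rich libraries, 1 in those libraries alone, and 1 without C26-bearing replicate 2 or 3. Signs were less stable than calls. The log2 fold change of miR-99b-5p turned to 0.0181 with RLE scaling, 0.00312 with DESeq2 and 0.0388 without both controls that carry a pair of numbers. RLE scaling and DESeq2 moved the median of all miRNAs from 0.01 to 0.19 and 0.20. With the term for miR-5119-rich libraries the values were 0.55 (miR-99b-5p), 0.20 (miR-10a-5p), 0.45 (miR-10b-5p), 0.58 (miR-125a-5p) and 0.20 (miR-125b-5p). In the rich libraries alone they were 0.42 (miR-99a-5p), 0.46 (miR-99b-5p), -0.0617 (miR-100-5p), 0.79 (miR-10a-5p), 1.55 (miR-10b-5p), 7.23 (miR-125a-5p, a fitted value against a single control at 0 and no bound) and 0.47 (miR-125b-5p). In the poor ones alone miR-99b-5p, miR-125a-5p and miR-125b-5p turned to 0.63, 0.11 and 0.0775. The cause of these changes of sign was not tested.

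With each library left out in turn the log2 fold changes ran from -1.03 to -0.32 (miR-99a-5p), -0.43 to 0.16 (miR-99b-5p), 0.32 to 1.14 (miR-100-5p), -0.65 to -0.04 (miR-10a-5p), -0.41 to 0.09 (miR-10b-5p), -2.56 to -0.15 (miR-125a-5p) and -0.46 to -0.01 (miR-125b-5p). miR-99b-5p was above 0 without C26-bearing replicate 2 (0.09) or 3 (0.16) or control replicate 1 (0.10), and miR-10b-5p without control replicate 1 (0.0912). The log2 ratio differences between plasma groups ran from -0.65 to -0.28 (miR-99a to miR-99b), -1.79 to 0.14 (miR-125a to miR-125b) and -0.48 to -0.20 (miR-10a to miR-10b). Between cell vesicles and control plasma they ran from -6.50 to -6.14, -3.23 to -1.30 and 5.06 to 5.53, and against C26-bearing plasma from -6.03 to -5.68, -1.74 to -0.93 and 5.38 to 5.85. Between plasma groups the miR-125a to miR-125b difference turned to 0.0488 with 0.1 added to each count, 0.53 without both controls that carry a pair of numbers and 2.64 in the rich libraries. Against cell vesicles it turned to 1.99 with the rich control alone. The miR-10a to miR-10b difference was 0.00762 in the poor libraries and the miR-99a to miR-99b difference 0.0375 in the rich ones.

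Deviations of same-numbered libraries from their group means correlated at -0.37, -0.29, -0.30 and 0.16. Replicates 1 to 3 were rich in miR-5119 in C26-bearing and poor in control plasma, while replicate 4 was rich in both. These correlations therefore cannot show whether same-numbered samples were paired. With a replicate block 0 members were called in edgeR, against 0 of all 130 miRNAs. There miR-125a-5p stood at -2.79, and the 3 plasma ratio differences were -0.21, -1.27 and -0.42. Depth limits miR-125a-5p and miR-125b-5p most, with 0 and 3 counts in control replicate 4.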
